A study of Mus musculus with 16 samples.

Results

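The 7 genes described here encode 2 immunosuppressive cytokine systems and 1 matrix protein: Il10, Il10ra and Il10rb, Tgfb1, Tgfbr1 and Tgfbr2, and Tgfbi. They were taken by symbol from the 32285 genes of the deposited single-cell matrices of B16 melanomas, and each of the 7 symbols matched 1 row. IL-10 is a dimeric cytokine that binds a receptor made of Il10ra, which is specific to IL-10 and restricts the cells that can respond, and Il10rb, which is shared with other cytokine receptors. The receptor signals through Jak1, Tyk2 and Stat3, and in macrophages it limits inflammatory cytokine output. TGF-beta 1 is secreted in a latent form that integrins and proteases release. It binds Tgfbr2, which recruits and phosphorylates Tgfbr1, the kinase that activates Smad2 and Smad3, and Tgfbi is a secreted adhesion protein first described as a TGF-beta-induced transcript. In tumours both cytokines are known to restrain T cells, and macrophages and regulatory T cells are known sources of them.

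C57BL/6J mice carried subcutaneous tumours grown from 1000000 cells of Bro4.1 B16, a mouse melanoma line, either control or without B2m, the light chain of MHC class I. They received 3 intraperitoneal doses of 100 µg of anti-CD40, an antibody to a costimulatory receptor of antigen-presenting cells, or of rat IgG2a isotype antibody, on days 6, 9 and 12, and tumours were taken on day 14. The sample labels put the B2m loss in the mouse, whereas the series design puts it in the implanted cells, which was followed here. The hosts were C57BL/6J in all 4 groups, and their tumour macrophages held B2m at 2401 to 5399 CPM (counts per 1000000 UMIs of the class) by mouse. No age is given for them. CD45-positive cells were enriched on magnetic beads and marked with 1 hashtag antibody per mouse, then pooled within a group and run with the 10x 3' version 3 chemistry. The groups were control isotype (5 mice in 2 pools), control CD40 (2 mice in 1 pool, run on 2 lanes as technical replicates), B2m-null isotype (5 mice in 2 pools) and B2m-null CD40 (4 mice in 2 pools). The labels list 3 hashtags for each pool, but 2 of the 8 matrices hold 3 hashtag rows and 6 hold 2. Each hashtag row was taken as 1 mouse, and the mouse numbers rest on that. The single control CD40 pool cannot be told apart from its group.

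The 8 lanes held 45985739 to 99264875 UMIs (unique molecular identifiers, 1 per captured transcript) over 116552 barcodes, and pairs of lanes shared 41 to 92 barcodes. After removal of hashtag doublets (9.23% of barcodes) and poor cells, 90631 cells remained. A class was assigned to 72039 of them from marker genes, so a class name such as macrophage stands for cells that look like macrophages by those markers. A total of 61375 cells had both a class and a mouse. Of the genes that no gate used, Cd68 was at 574 CPM in macrophages and 43.1 CPM in CD8 T cells, and Cd2 at 6.34 and 227 CPM. The split of macrophages from monocytes was less clear. Cd68 (574 and 280 CPM), Mertk and Trem2 were higher in macrophages than in monocytes. Csf1r (219 and 277 CPM) and Fcgr1 (250 and 415 CPM) were lower. In melanoma-gated cells B2m was at 939 to 2213 CPM in the 7 control-tumour mice. It was at 349 and 549 CPM in the only B2m-null isotype mouse and the only B2m-null CD40 mouse with at least 20 such cells. T cells with at least 1 Foxp3 UMI formed a class of their own, with no other marker required. It is called Foxp3-positive T cells below, because Cd8a or Cd8b1 UMIs were present in many of its 620 cells. Their share was 24.1% in control isotype, 67.4% in control CD40, 15.6% in B2m-null isotype and 60.2% in B2m-null CD40. One mouse, B2m-null CD40 pool 1 mouse 1, gave only 387 cells and its values rest on few counts.

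Of the cytokines, Il10 (ENSMUSG00000016529, chr1:131019845-131024974, plus strand, GRCm38) was highest in Foxp3-positive T cells, at 74.6 ± 30.2 CPM (SD, n = 12 mice with at least 20 such cells). Orders of classes are limited to those with at least 6 such mice. Macrophages followed at 33.5 ± 12.9 CPM (n = 16). Foxp3-positive T cells lay above the macrophages of the same mouse in 12 of 12 mice (paired exact permutation test, two-sided, adjusted p = 0.0148 over 91 tests of neighbouring classes of the 7 genes). Here and below, the order of classes was taken from the same values that were tested. The tests thus only mark neighbours that do not differ beyond their spread, and are not independent support for the order. CD4 T cells at 31.1 ± 26.7 CPM (n = 11), CD8 T cells at 18.5 ± 16.2 CPM (n = 15) and monocytes at 12.3 ± 10.9 CPM (n = 16) came next, and these neighbours did not differ beyond their spread. The lowest were 2 dendritic cell classes: type 1 conventional dendritic cells (cDC1), which cross-present antigen, had 0.259 ± 0.660 CPM (n = 12) and plasmacytoid dendritic cells (pDC) 0.669 ± 1.89 CPM (n = 8). Without the cells that held a Cd8a or Cd8b1 UMI, a selection added after the data were seen, Foxp3-positive T cells had a mean of 90.8 CPM over the 7 mice with enough cells. Of these mice 4 had control tumours under isotype, and 2 under isotype and 1 under CD40 had B2m-null tumours, so that no control CD40 mouse was among them. Pooled over the control CD40 mice, the Il10 level was 31.8 CPM in the 31 cells without such a UMI (2 Il10 UMIs) and 79.3 CPM in the 64 cells with one (26 Il10 UMIs), against 92.9 and 38.8 CPM in control isotype.

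Tgfb1 (ENSMUSG00000002603, chr7:25687002-25705077, plus strand) was spread more evenly over the classes. Of the classes with at least 6 mice, monocytes led at 191 ± 53.5 CPM (n = 16), followed by natural killer (NK) cells at 150 ± 57.4 CPM (n = 14), macrophages at 141 ± 24.8 CPM (n = 16) and type 2 conventional dendritic cells (cDC2) at 127 ± 47.4 CPM (n = 8). Foxp3-positive T cells stood at 114 ± 17.4 CPM (n = 12) and CD8 T cells at 94.0 ± 16.7 CPM (n = 15). No pair of neighbours in the order passed the test, the nearest being monocytes over NK cells in 11 of 14 mice (paired exact permutation test, adjusted p = 0.0629). Mature dendritic cells at 49.0 ± 23.1 CPM (n = 12) and melanoma cells at 16.8 ± 6.10 CPM (n = 9) closed the order. Endothelial cells, from 2 mice only and so not ranked, had 233 CPM.

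The receptor chains of IL-10 had different class orders. Il10ra (ENSMUSG00000032089, chr9:45253837-45269149, minus strand) was found in every haematopoietic class with at least 6 mice, between 69.1 ± 15.03 CPM in macrophages (n = 16) and 138 ± 40.4 CPM in cDC2 (n = 8), with monocytes second at 129 ± 26.0 CPM (n = 16). The 8 cDC2 mice had all received isotype. Within these 8 mice cDC2 lay above monocytes in only 2 (paired exact permutation test, adjusted p = 0.930), so the lead of cDC2 was not seen within mice. Fibroblasts had 13.2 ± 8.60 CPM and melanoma cells 5.39 ± 2.64 CPM (n = 9 each). Macrophages, the lowest haematopoietic class, lay above the fibroblasts of the same mouse in 9 of 9 mice, with an adjusted p of 0.0629 in the paired exact permutation test. The unadjusted p of 0.00391 is the smallest that this test allows with 9 mice. Il10rb (ENSMUSG00000022969, chr16:91406164-91425834, plus strand) was led by neutrophils at 121 ± 38.9 CPM (n = 9) and macrophages at 115 ± 14.0 CPM (n = 16). Neutrophils exceeded macrophages in 5 of 9 mice (paired exact permutation test, adjusted p = 0.930). Macrophages exceeded monocytes, at 91.6 ± 13.3 CPM (n = 16), in 14 of 16 mice (adjusted p = 0.00555 in the same exact test). Il10rb reached 74.5 ± 14.3 CPM in melanoma cells (n = 9), while cDC1 and cDC2 were lowest at 36.0 ± 13.1 and 36.3 ± 17.9 CPM (n = 12 and 8).

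Of the TGF-beta receptor chains, Tgfbr1 (ENSMUSG00000007613, chr4:47353222-47414931, plus strand) was highest in pDC at 131 ± 46.0 CPM (n = 8). These 8 mice had all received isotype. Neutrophils followed at 79.6 ± 68.3 CPM (n = 9), fibroblasts at 55.6 ± 15.8 CPM (n = 9) and macrophages at 45.5 ± 14.8 CPM (n = 16), and CD8 T cells were near the bottom at 14.5 ± 9.48 CPM (n = 15). No neighbouring pair of classes passed the test for Tgfbr1, though pDC and neutrophils shared only 4 mice, too few to pass. Tgfbr2 (ENSMUSG00000032440, chr9:116084293-116175360, minus strand) was highest in fibroblasts at 286 ± 148 CPM (n = 9). Fibroblasts lay above B cells in 4 of the 5 mice with both classes, too few mice to pass (paired exact permutation test, adjusted p = 0.747). Next in the order were B cells at 168 ± 92.1 CPM (n = 6), CD4 T cells at 130 ± 25.4 CPM (n = 11), NK cells at 120 ± 29.5 CPM (n = 14) and CD8 T cells at 114 ± 25.8 CPM (n = 15). Gamma-delta T cells, from 2 mice and not ranked, had 205 CPM. Macrophages held 95.3 ± 21.5 CPM (n = 16), Foxp3-positive T cells 88.8 ± 42.7 CPM (n = 12) and monocytes 41.0 ± 18.3 CPM (n = 16). Monocytes exceeded cDC1, at 28.8 ± 6.77 CPM (n = 12), in 11 of 12 mice (paired exact permutation test, adjusted p = 0.0444), and mature dendritic cells were lowest at 19.5 ± 7.20 CPM (n = 12).

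Tgfbi (ENSMUSG00000035493, chr13:56609523-56639562, plus strand) followed the myeloid lineage. It stood at 1313 ± 322 CPM in monocytes and 592 ± 209 CPM in macrophages (n = 16 each). The monocytes were higher in 16 of 16 mice (paired exact permutation test, adjusted p = 0.00278). Below them came cDC2 at 527 ± 125 CPM (n = 8), cDC1 at 344 ± 77.5 CPM (n = 12) and neutrophils at 307 ± 141 CPM (n = 9). The lymphocyte classes with at least 6 mice ranged from 50.2 CPM in NK cells to 123 CPM in Foxp3-positive T cells. With at least 50 cells per mouse, Tgfb1 and Tgfbi kept monocytes as their highest class, and the other 5 genes did not keep theirs. The class that had led for each of those 5 then had fewer than 6 mice and was no longer ranked. First places went to macrophages for Il10, Il10rb and Tgfbr1, to monocytes for Il10ra and to CD4 T cells for Tgfbr2. All 7 genes are protein coding in GENCODE, and levels are compared between classes only, not between genes.

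**Figure D1:**
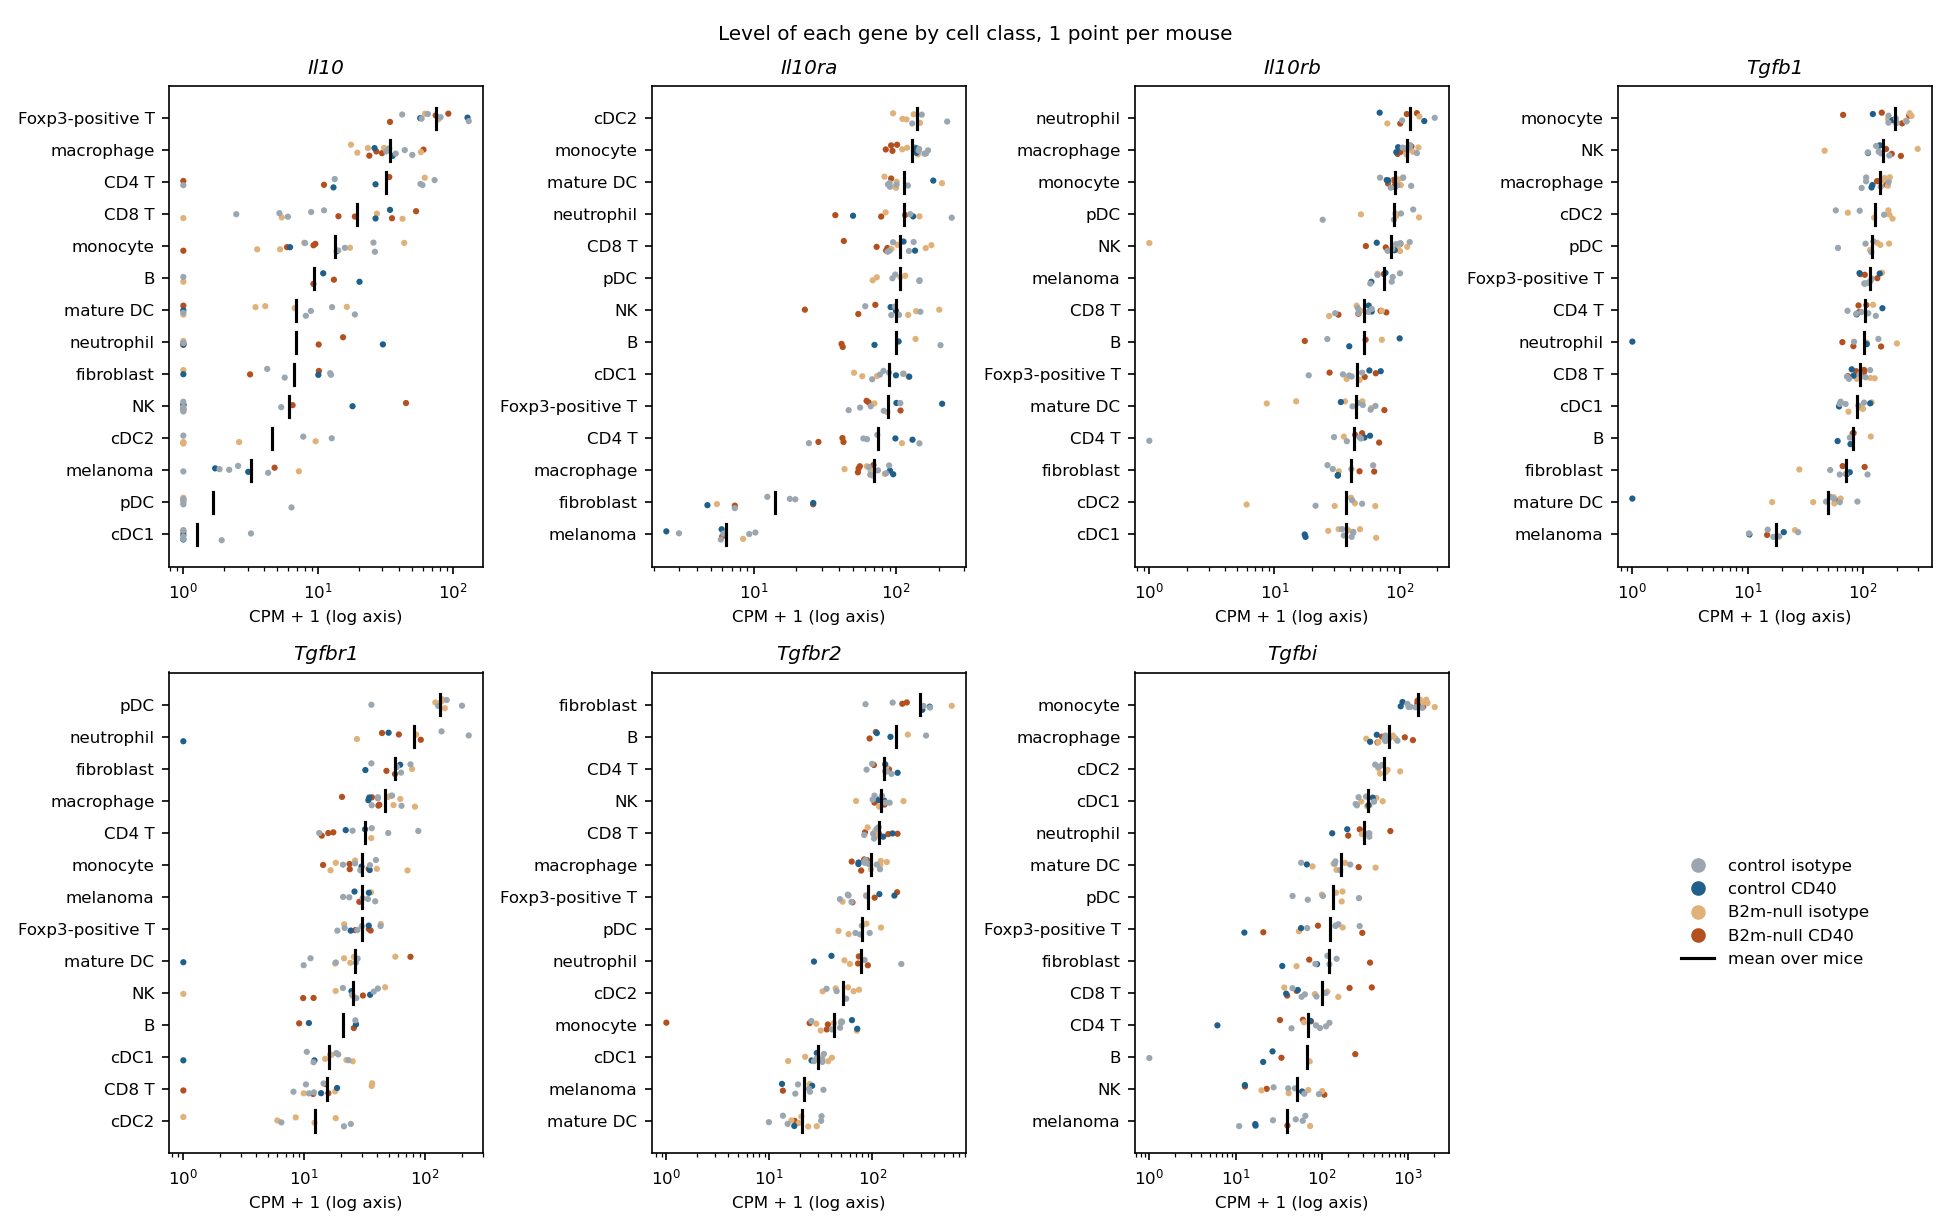
Level of each of the 7 genes by marker-gated class, as CPM + 1 on a log axis, with 1 point per mouse and a black line at the mean over mice. Tgfbi is highest in monocytes (1313 CPM) and macrophages (592 CPM), Il10 in Foxp3-positive T cells (74.6 CPM), and Tgfbr2 in fibroblasts (286 CPM), the last 2 of which are not ranked when at least 50 cells per mouse are required.

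Tgfbi and Tgfbr2 gave most of the changes described below, so the sequence before their starts is shown (RefSeq, GRCm38.p6). Both windows were searched for CAGAC, the box that Smad proteins bind, on either strand, and matches are in capitals.
Tgfbi, chr13:56609336-56609522, plus strand: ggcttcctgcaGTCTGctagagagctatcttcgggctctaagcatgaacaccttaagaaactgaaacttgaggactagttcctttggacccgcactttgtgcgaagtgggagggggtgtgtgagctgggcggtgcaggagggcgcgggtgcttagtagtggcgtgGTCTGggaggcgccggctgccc
Tgfbr2, chr9:116175364-116175613, minus strand: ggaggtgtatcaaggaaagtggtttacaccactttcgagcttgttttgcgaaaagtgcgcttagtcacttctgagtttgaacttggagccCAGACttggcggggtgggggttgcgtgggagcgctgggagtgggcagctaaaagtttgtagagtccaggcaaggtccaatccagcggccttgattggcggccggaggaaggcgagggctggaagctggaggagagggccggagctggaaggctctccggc
For Tgfbi the 187 bases printed end at the GENCODE start, before the RefSeq one. The search covered the 250 bases before the RefSeq start of each gene. It found 2 matches for Tgfbi, both as GTCTG and within the printed bases, and 1 for Tgfbr2, whereas 42.2% of 32851 mouse promoter windows of this length held at least 1. Tgfb1 had none, and of the 2 entries of Tgfbr1 1 had none and 1 had a single match. A match of 5 letters is a description of the window, not of binding.

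Macrophages were the most numerous class and held most of the UMIs of several of these genes. The shares in this paragraph are of the haematopoietic cells with a class, and leave out those that no gate took. A share of UMIs depends on the depth of the cells as well as on the level of the gene. Macrophages had a median of 4741 UMIs per cell and CD8 T cells 2235. In mice with at least 20 such cells, macrophages held 199781353 UMIs of all genes and CD8 T cells 38866944. A share of UMIs above the share of cells is thus not by itself a higher level. Macrophages made up 53.3% of such cells of a control isotype mouse on average and held 81.4% of its Il10 UMIs. In control CD40 they were 46.1% of cells with 65.8% of Il10 UMIs, in B2m-null isotype 61.2% with 84.3%, and in B2m-null CD40 52.5% with 75.7%. CD8 T cells were 9.74% of the cells in control isotype with 2.11% of the Il10 UMIs, against 31.3% of cells with 25.1% of the UMIs in control CD40. In B2m-null tumours CD8 T cells held 2.38% of the Il10 UMIs under isotype and 14.6% under CD40, where they were 3.71% and 23.5% of cells. Foxp3-positive T cells, with the highest level per UMI, held 1.98 to 5.18% of the Il10 UMIs by group. For Tgfbr2 the CD8 T share was 13.4% in control isotype, 35.4% in control CD40, 3.76% in B2m-null isotype and 24.4% in B2m-null CD40. With the cells that no gate took in the denominator, macrophages were 42.2% of the cells and held 71.6% of the Il10 UMIs in control isotype, and 35.9% with 60.3% in control CD40. CD8 T cells were then 7.70% of the cells with 1.84% of the Il10 UMIs in control isotype and 24.3% with 23.0% in control CD40.

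Comparisons between groups used UMI counts summed per mouse and class, fitted over all genes with edgeR's quasi-likelihood test. A change is written as a log2 value with its SE, and called where the Benjamini-Hochberg adjusted p over all genes of the class was below 0.05. The fitted changes are relative to TMM scaling, which in macrophages differs from scaling by library totals. With totals only, a setting added after the data were seen, the median of all macrophage genes moved by -0.21 for CD40 in B2m-null tumours and by -0.13 in control tumours. The medians of monocytes, CD8 T and NK cells moved by -0.15, -0.17 and -0.18 for CD40 in B2m-null tumours, and that of monocytes by -0.12 for B2m-null against control under CD40. Over the classes tested, CD40 changed 2 of 46 gene and class pairs in control tumours, where 14.7% of all genes tested were called. In B2m-null tumours CD40 changed 2 of 33 pairs, against 18.5% of all genes. B2m loss changed 1 of 50 pairs under isotype, against 3.1%, and 4 of 40 pairs under CD40, against 6.74%. These comparisons share groups. The CD40 effect did not pass the test for a difference between the tumour genotypes in any of 33 pairs by edgeR, against 10.3% of all genes, with 5 pairs at an unadjusted p below 0.05. DESeq2 also called 0. Leaving out 1 mouse or lane brought single pairs past the threshold. Tgfbi in macrophages passed without B2m-null CD40 pool 2 mouse 1 or 2, B2m-null isotype pool 1 mouse 2 or lane B2m-null CD40 2 (1.20 to 1.55, adjusted p from 0.00722 to 0.0437). Il10ra in macrophages passed without B2m-null isotype pool 2 mouse 2 or its lane (-0.53, adjusted p = 0.0294 and 0.0427). Tgfbi in CD8 T cells passed without lane B2m-null CD40 2 (2.03, adjusted p = 0.00582). Without a filter on low counts Tgfbi passed for this difference in macrophages (1.11, adjusted p = 0.0126) and CD8 T cells (0.9987, adjusted p = 0.0150), and in macrophages also under the stricter gate (1.13, adjusted p = 0.0467).

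**Figure D2:**
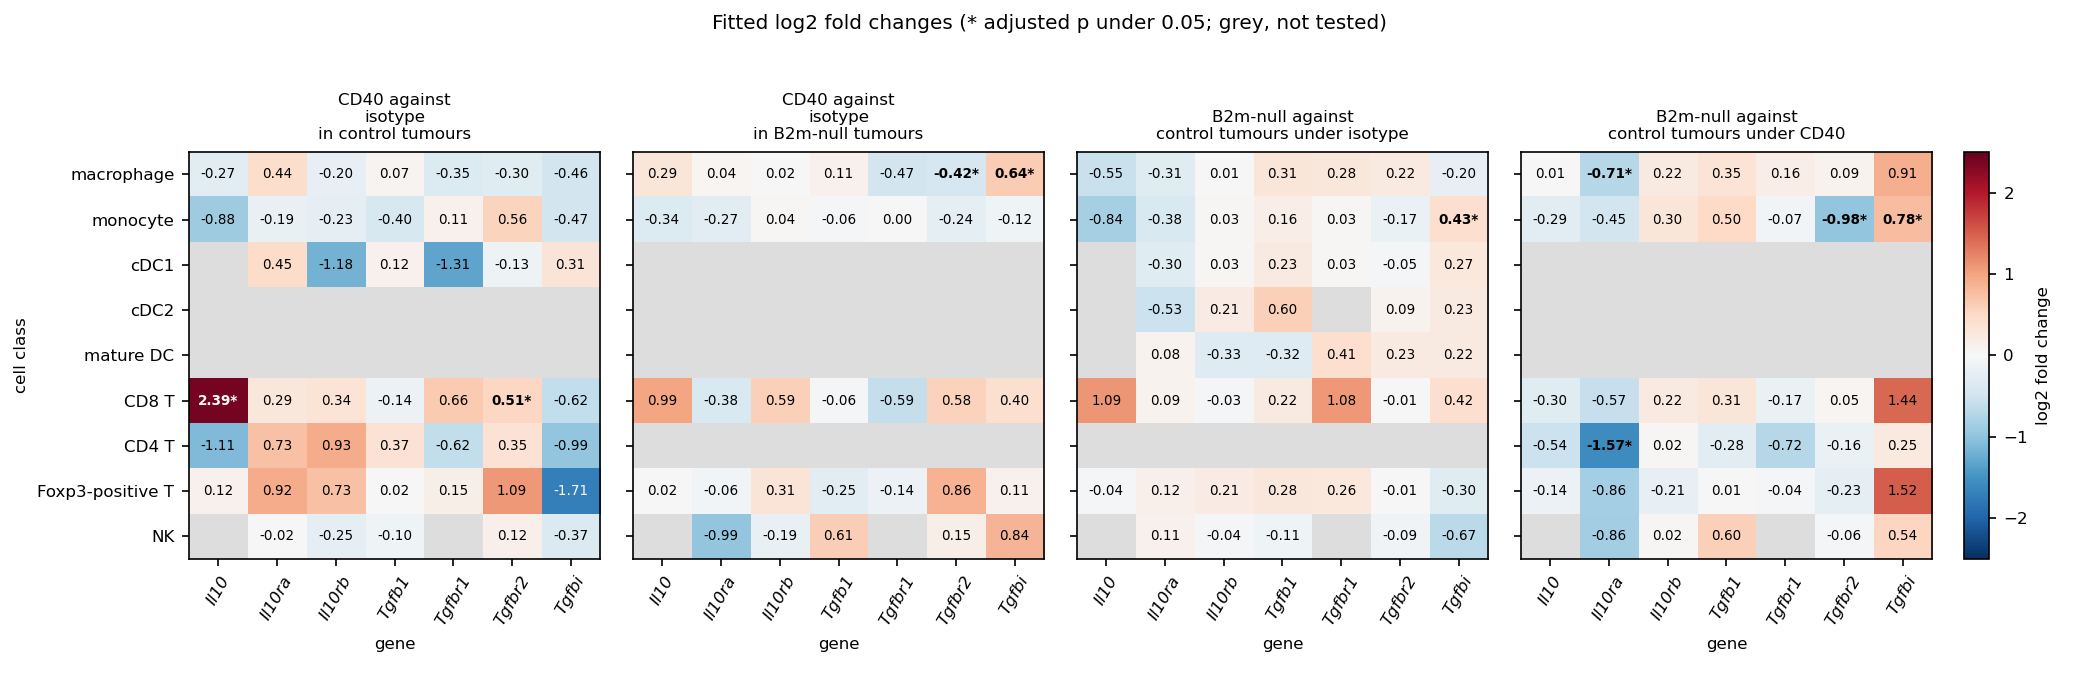
Fitted log2 change of the 7 genes (columns) in 9 classes (rows) for the 4 comparisons (panels), in colour, with an asterisk where the adjusted p is below 0.05 (edgeR) and grey where the pair was not tested. Of the 9 asterisks, 3 belong to Tgfbr2, 3 to Tgfbi, 2 to Il10ra and 1 to Il10.

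The question of the first comparison was what anti-CD40 changed in control tumours. Among the pairs called in this comparison, the larger change was that of Il10, which rose in CD8 T cells. The 2 control CD40 mice had 33.2 and 25.7 CPM (117 and 288 UMIs). The 5 control isotype mice had 4.17, 1.47, 10.1, 4.97 and 7.89 CPM, from 2 to 15 UMIs each. The groups did not overlap, and the means were 29.5 ± 5.30 CPM (n = 2) and 5.72 ± 3.35 CPM (n = 5). The fitted log2 change was 2.39 (SE 0.49, edgeR adjusted p = 0.00127), a 5.23-fold rise, in a class where 33.2% of genes were called. It passed in each of 31 alternative settings, with log2 changes from 2.12 to 3.33 and adjusted p-values up to 0.0352. None of them left out a control CD40 mouse, because a group with a single mouse was not tested. The result rests on the same 2 treated mice throughout.

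In B2m-null tumours Il10 in CD8 T cells was scattered. The B2m-null CD40 mice had 52.4 (5 UMIs), 34.4, 13.2 and 17.8 CPM and the B2m-null isotype mice 0 (which allows up to 26.7 CPM), 26.4 (3 UMIs), 4.38 and 41.4 CPM, so the groups overlapped. The fitted change was 0.99 (SE 0.62, edgeR adjusted p = 0.354), where 7.74% of the genes of the class were called. The difference between the 2 CD40 effects was -1.40 (SE 0.84, adjusted p = 0.350 in the same fit), so a difference between the genotypes was not shown. No CD8 T gene of the 7 was called for B2m loss, under isotype (0.306% of all genes of the class called) or under CD40 (5.04%). Tgfbi came near a call under CD40, with 378, 208, 49.9 and 38.6 CPM in the B2m-null mice and 37.5 and 51.6 CPM in the controls, which overlapped. The fitted value was 1.44 (SE 0.55, edgeR adjusted p = 0.133). It passed without lane B2m-null CD40 2 (2.44, adjusted p = 0.000317), without mouse 1 of that pool (1.78, adjusted p = 0.0423) and with no filter on low counts (1.38, adjusted p = 5.96e-08). Myeloid transcripts of the CD8 T class were also higher in B2m-null CD40 than in control CD40, with Lyz2 at 779 and 274 CPM, Cd68 at 56.5 and 31.3 CPM, Csf1r at 24.3 and 15.3 CPM, Mrc1 at 29.1 and 15.9 CPM and C1qa at 58.8 and 49.4 CPM, whereas Apoe was at 60.7 and 95.9 CPM. Their part in the result was not tested. Without lane B2m-null CD40 2, Tgfbi in CD8 T cells also passed for CD40 in B2m-null tumours (1.39, adjusted p = 0.0415). With no filter it passed for CD40 in control tumours (-0.61, adjusted p = 0.0162).

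The share of CD8 T cells with an Il10 UMI was 2.02% in control isotype cells, at a median of 4337 UMIs per cell, and 3.80% in control CD40 cells, at a median of 1782. With each cell thinned to 1000 UMIs, 4 of 1459 control isotype cells (0.274%) and 87 of 4621 control CD40 cells (1.88%) held one, after 75 and 1452 shallower cells were left out. In B2m-null tumours the shares were 1.67% and 4.89% (medians of 2992 and 2500 UMIs) and after thinning 0.709% (4 of 564) and 1.94% (80 of 4128), with 35 and 247 cells left out. In cDC1, the class with the lowest Il10 level, 0.494% of cells had an Il10 UMI in each isotype group, at medians of 5815 and 4246 UMIs, and none after thinning. These shares include cells that were not assigned to a mouse. In B2m-null isotype, the cDC1 assigned to the 5 mice were at 0 CPM of Il10. Macrophage transcripts were also found in the CD8 T class. C1qa was at 44.6 CPM in control isotype and 49.4 CPM in control CD40, Cd68 at 40.2 and 31.3 CPM, Mrc1 at 34.2 and 15.9 CPM and Csf1r at 17.4 and 15.3 CPM. Apoe was at 124 CPM in control isotype and 95.9 CPM in control CD40, and Il10 at 5.72 and 29.5 CPM. The part of macrophage transcripts in the Il10 result was not tested.

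**Figure D3:**
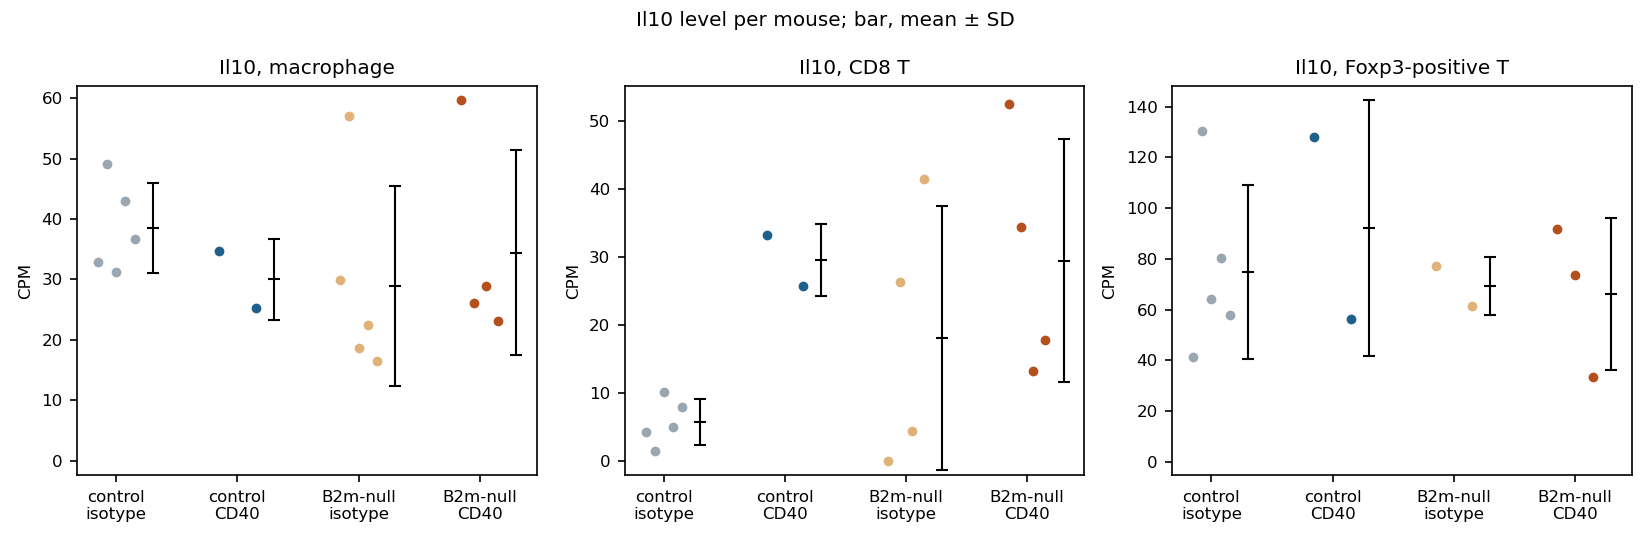
Il10 in macrophages, CD8 T cells and Foxp3-positive T cells by group, in CPM, with 1 point per mouse and bars for the mean ± SD. In CD8 T cells the 2 control CD40 mice (33.2 and 25.7 CPM) lie above all 5 control isotype mice (1.47 to 10.1 CPM), and in the other 2 classes the groups overlap.

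In macrophages, Il10 was not called in any comparison. The control isotype mice had 32.8, 49.1, 31.2, 43.0 and 36.7 CPM and the control CD40 mice 34.8 and 25.3 CPM. The B2m-null isotype mice had 29.9, 57.1, 18.6, 22.5 and 16.6 CPM and the B2m-null CD40 mice 59.7, 26.1, 28.8 and 23.0 CPM, so 1 mouse in each of these groups stood far above the rest. The adjusted p-values (edgeR) were 0.613 and 0.456 for CD40 in control and B2m-null tumours and 0.184 and 0.994 for B2m loss under isotype and CD40. These results turned on the high B2m-null isotype mouse, pool 1 mouse 2. Without it, Il10 in macrophages passed for B2m loss under isotype (-0.88, adjusted p = 0.0145) and for CD40 in B2m-null tumours (0.62, adjusted p = 0.0420), and without its lane the values were -1.02 (adjusted p = 0.0444) and 0.78 (adjusted p = 0.0399). Il10 in Foxp3-positive T cells was also not called, with means of 74.8 ± 34.2 CPM in control isotype (n = 5), 92.1 ± 50.6 in control CD40 (n = 2), 69.3 ± 11.4 in B2m-null isotype (n = 2) and 66.3 ± 30.0 in B2m-null CD40 (n = 3). Their adjusted p-values lay between 0.919 and 0.999.

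Il10 in monocytes was not called either. The control isotype mice had 7.02, 13.1, 24.8, 25.5 and 14.8 CPM and the control CD40 mice 5.20 and 12.8 CPM. The B2m-null isotype mice had 16.3, 42.7, 6.90, 4.23 and 2.54 CPM and the B2m-null CD40 mice 0 (which allows up to 40.0 CPM), 8.56, 4.89 and 8.25 CPM. The highest value, 42.7 CPM from 22 UMIs, was that of B2m-null isotype pool 1 mouse 2, the mouse that was also high in macrophages. The adjusted p-values (edgeR) were 0.542 and 0.749 for CD40 in control and B2m-null tumours and 0.524 and 0.883 for B2m loss under isotype and CD40. Without that mouse, monocyte Il10 passed for B2m loss under isotype (-1.96, adjusted p = 0.0120), as it did without its lane (-2.29, adjusted p = 0.0167). Without lane B2m-null isotype 2 it passed for CD40 in B2m-null tumours (-1.62, adjusted p = 0.0244).

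Tgfb1 was called in no class. In macrophages its means were 123 ± 29.6 CPM in control isotype and 119 ± 1.51 in control CD40, 160 ± 9.78 in B2m-null isotype and 149 ± 16.2 in B2m-null CD40 (n = 5, 2, 5 and 4), with an adjusted p of 0.117 for B2m loss under isotype. Tgfb1 in macrophages passed in that comparison without control isotype pool 2 mouse 2 (0.44, adjusted p = 0.0212) or its lane (0.57, adjusted p = 0.00365), and under CD40 without lane control CD40 1 (0.70, adjusted p = 0.0177). In monocytes Tgfb1 passed for B2m loss under CD40 without lane B2m-null CD40 1 (0.84, adjusted p = 0.0244). In NK cells Tgfb1 passed with thinned cells, for CD40 in B2m-null tumours (1.17, adjusted p = 0.0302) and for the difference between the CD40 effects (1.79, adjusted p = 0.0380).

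Tgfbr2 was the second gene that rose in CD8 T cells under CD40 in control tumours. The control CD40 mice had 126 and 156 CPM and the control isotype mice 101, 82.4, 103, 114 and 110 CPM, without overlap. The log2 change was 0.51 (SE 0.19, edgeR adjusted p = 0.0389). This call was lost in 9 of 31 settings. They include the fit without lane control isotype 1 (0.39, adjusted p = 0.315), without lane control CD40 1 (0.38, adjusted p = 0.146), with thinned cells (0.34, adjusted p = 0.256), with DESeq2 (0.51, adjusted p = 0.0821) and with the lane as the unit (0.54, adjusted p = 0.236). It was also lost without control isotype pool 1 mouse 1, 2 or 3 or pool 2 mouse 2 (adjusted p from 0.0514 to 0.0861). In B2m-null tumours the CD40 mice had 83.9, 115, 175 and 142 CPM and the isotype mice 89.0, 105, 109 and 107 CPM, a change of 0.58 (SE 0.20) that did not pass (adjusted p = 0.0781). Foxp3-positive T cells had 163 and 116 CPM of Tgfbr2 in control CD40 against 61.7, 47.5, 56.8, 57.8 and 86.7 CPM in control isotype. The groups did not overlap, and the adjusted p was 0.0551 for a log2 value of 1.09 (SE 0.35). The share of this class with a Cd8a or Cd8b1 UMI was 67.4% and 24.1% in these 2 groups, and its part in the difference was not tested. Both near-misses passed when 1 mouse or lane was left out. For CD8 T cells of B2m-null tumours these were B2m-null CD40 pool 1 mouse 1, mouse 2 or their lane (0.64 to 0.80, adjusted p from 0.00358 to 0.0424). For Foxp3-positive T cells of control tumours they were control isotype pool 2 mouse 2 and parts of the B2m-null CD40 group, which shares the fit. The latter were pool 1 mouse 2, pool 2 mice 1 and 2 and both B2m-null CD40 lanes. The values of all these fits were 1.06 to 1.27 (adjusted p from 0.0301 to 0.0492). With no filter on low counts both passed (adjusted p = 0.0451 for CD8 T cells and 0.0404 for Foxp3-positive T cells).

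Other genes of the Foxp3-positive T cells came near a call. Tgfbi was at 11.6 (1 UMI) and 56.4 CPM (17 UMIs) in the control CD40 mice and at 144, 142, 273, 154 and 66.5 CPM in the control isotype mice, without overlap. The log2 value of -1.71 (SE 0.73) was the largest in size after that of Il10 in CD8 T cells among the pairs tested in this comparison, and did not pass (edgeR adjusted p = 0.152). With no filter on low counts it passed (-1.74, adjusted p = 0.000141), as did the same gene and class for B2m loss under CD40 (1.54, adjusted p = 0.0153) and for the difference between the CD40 effects (1.81, adjusted p = 0.0171). Macrophage transcripts of this class were also lower in control CD40 than in control isotype, with Apoe at 43.1 and 146 CPM, C1qa at 19.1 and 41.6 CPM and Cd68 at 24.9 and 59.1 CPM, and their part in the result was not tested. Il10ra was at 209 and 99.5 CPM in the control CD40 mice and at 54.9, 65.3, 45.4, 106 and 80.9 CPM in the control isotype mice, overlapping, with a log2 value of 0.92 (SE 0.34, adjusted p = 0.0981). It passed without control isotype pool 2 mouse 1 (1.14, adjusted p = 0.0482), without that lane (1.37, adjusted p = 0.0350) and under the stricter gate (1.23, adjusted p = 0.0428).

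In B2m-null tumours, Tgfbr2 of Foxp3-positive T cells had a value of 0.86 for CD40 (adjusted p = 0.146), which passed without B2m-null CD40 pool 1 mouse 2 or its lane (1.09, adjusted p = 0.0414) and under the stricter gate (1.33, adjusted p = 0.0356). Il10rb in CD8 T cells of the same comparison had 0.59 (adjusted p = 0.193), which passed without B2m-null CD40 pool 1 mouse 2 (0.78, adjusted p = 0.0324) or its lane (0.85, adjusted p = 0.0130). Il10ra in NK cells averaged 48.5 CPM under CD40 and 138 CPM under isotype in B2m-null tumours, without overlap, at -0.99 (SE 0.34, adjusted p = 0.0972), and passed with library totals only (-1.17, adjusted p = 0.0472). For CD40 in control tumours Tgfbr1 in CD8 T cells had 0.66 (adjusted p = 0.0984), which passed without lane B2m-null CD40 1 (0.68, adjusted p = 0.0473). Il10ra in monocytes passed for CD40 in B2m-null tumours with library totals only (-0.43, adjusted p = 0.0171). Il10 in NK cells, which the filter on low counts leaves out, passed without it for the same comparison (adjusted p = 0.00591). This rests on few counts, with 17 Il10 UMIs in the NK cells of all mice. The B2m-null isotype mice were at 0 CPM (n = 4) and the B2m-null CD40 mice at 0 to 44.0 CPM (16.5 ± 24.0, n = 3).

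In macrophages of B2m-null tumours, the question was whether CD40 changed the TGF-beta receptor chains and Tgfbi. Tgfbr2 fell. The B2m-null CD40 mice had 87.9, 62.0, 82.3 and 76.9 CPM and the B2m-null isotype mice 120, 118, 95.9, 114 and 137 CPM, so every treated mouse lay below every isotype mouse. The log2 change was -0.42 (SE 0.12, edgeR adjusted p = 0.0127), in a class where 37.1% of genes were called. The call was lost without B2m-null CD40 pool 1 mouse 2 (-0.32, adjusted p = 0.0561), without lane B2m-null CD40 1 (-0.33, adjusted p = 0.0773) and without lane B2m-null isotype 2 (-0.32, adjusted p = 0.0712). In control tumours the values were 72.5 and 72.3 CPM under CD40 against 83.2, 109, 91.2, 84.4 and 118 CPM, also without overlap, with a log2 value of -0.30 (adjusted p = 0.167) where 23.1% of genes were called. The difference between the 2 effects was -0.13 (adjusted p = 0.700). Tgfbr1 had 19.5, 40.8, 40.1 and 35.3 CPM under CD40 and 81.3, 53.7, 61.3, 50.7 and 48.6 CPM under isotype in B2m-null tumours, without overlap, at a log2 value of -0.47 (SE 0.18, adjusted p = 0.0535). Tgfbr1 passed with library totals only (-0.68, adjusted p = 0.00701) and with DESeq2 (-0.51, adjusted p = 0.0269). It also passed in a minority, 6, of the fits that left out 1 mouse or lane (-0.61 to -0.47, adjusted p from 0.0280 to 0.0461). Those left out were B2m-null isotype pool 2 mouse 2 and its lane, control isotype pool 1 mouse 3 and pool 2 mouse 2, and both control isotype lanes. The stricter gate (adjusted p = 0.0395) and no filter on low counts (adjusted p = 0.0318) gave a call as well. With library totals only, Tgfbr2 (-0.43) and Il10rb (-0.32) also passed for CD40 in control macrophages (adjusted p = 0.0439 and 0.0442).

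Tgfbi rose in the same macrophages, by 0.64 (SE 0.24, edgeR adjusted p = 0.0406), and the high values came from 1 pool. The 2 mice of B2m-null CD40 pool 1 had 912 and 1134 CPM and those of pool 2 439 and 495 CPM, against 450, 710, 666, 582 and 325 CPM under isotype. Without lane B2m-null CD40 1 the value was 0.03 (adjusted p = 0.946). The call was lost in 13 of 34 settings. The others by lane were lane B2m-null isotype 1 (0.87, adjusted p = 0.0622), lane B2m-null isotype 2 (0.51, adjusted p = 0.125) and lane control isotype 1 (0.64, adjusted p = 0.0671). By mouse they were B2m-null CD40 pool 1 mouse 1 (0.55, adjusted p = 0.104) and mouse 2 (0.35, adjusted p = 0.238), and B2m-null isotype pool 1 mouse 1 (0.57, adjusted p = 0.0916) and pool 2 mouse 2 (0.50, adjusted p = 0.0881). The call was also lost with library totals only (0.44, adjusted p = 0.158), DESeq2 (adjusted p = 0.0530), the stricter cell filter (0.49, adjusted p = 0.125), thinned cells (0.43, adjusted p = 0.132) and the lane as the unit (0.85, adjusted p = 0.0860). Some monocyte genes of those macrophages differed between the B2m-null CD40 pools in the same direction. In pool 1 against pool 2, Ly6c2 was 84.9 and 29.4 CPM, Chil3 49.3 and 17.7 CPM and Plac8 443 and 167 CPM, and Ccr2 was 113 and 86.7 CPM, whereas Vcan was 11.7 and 10.7 CPM and the macrophage gene C1qa 1968 and 2685 CPM. Against isotype the monocyte genes did not move together. Ccr2 and Vcan were lower in both CD40 pools than in the B2m-null isotype pools (229 and 179 CPM for Ccr2, 31.9 and 34.7 CPM for Vcan), the opposite direction to Tgfbi. Ly6c2 was at 52.3 and 25.4 CPM, Chil3 at 43.5 and 30.4 CPM and Plac8 at 334 and 223 CPM in the isotype pools. Their part in the result was not tested. In CD8 T cells Tgfbi was likewise higher in the pool 1 mice, at 378 and 208 CPM against 49.9 and 38.6 CPM. In control tumours the macrophage values were 431 and 361 CPM under CD40 against 543, 602, 545, 750 and 526 CPM, without overlap, at -0.46 (SE 0.30, adjusted p = 0.285). The difference between the CD40 effects was 1.10 (SE 0.39, adjusted p = 0.0533). Set against each other under CD40, B2m-null macrophages averaged 745 CPM of Tgfbi and control macrophages 396 CPM, without overlap, at a log2 value of 0.91 (SE 0.32, adjusted p = 0.0697). This value for B2m loss passed without lane B2m-null CD40 2 (1.35, adjusted p = 0.0106), B2m-null CD40 pool 2 mouse 1 (1.09, adjusted p = 0.0317), B2m-null isotype pool 2 mouse 2 (0.91, adjusted p = 0.0408) or its lane (0.91, adjusted p = 0.0474), and with no filter on low counts (0.90, adjusted p = 0.0206). Under isotype it was -0.20 (adjusted p = 0.635).

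**Figure D4:**
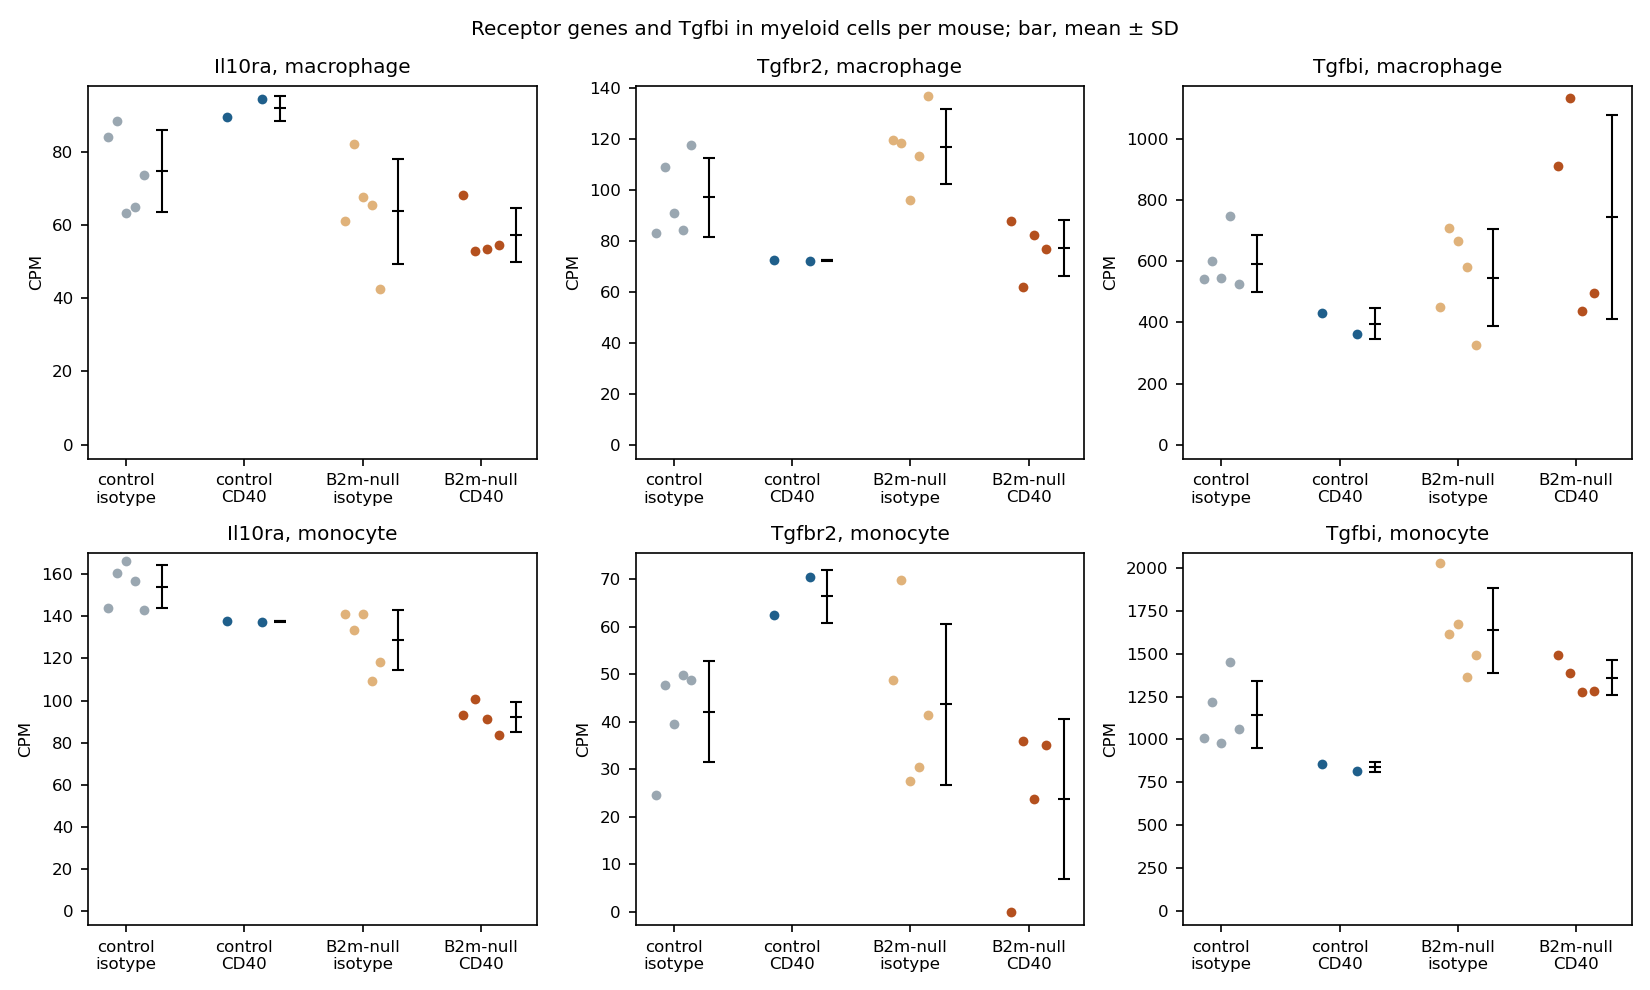
Il10ra, Tgfbr2 and Tgfbi in macrophages (top row) and monocytes (bottom row) by group, in CPM, with 1 point per mouse and bars for the mean ± SD. Tgfbi of monocytes is higher in both B2m-null groups (means of 1636 and 1359 CPM) than in the control groups (1145 and 837 CPM), and macrophage Il10ra is lowest in B2m-null CD40 (57.4 CPM on average).

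B2m loss was compared under each antibody. Tgfbi was higher in monocytes of B2m-null tumours in both comparisons, which rest on different mice within 1 fit. Under CD40 the B2m-null mice had 1492, 1388, 1275 and 1282 CPM (1359 ± 102, n = 4) and the control mice 858 and 817 CPM (837 ± 29.1, n = 2), without overlap. The log2 change was 0.78 (SE 0.16, edgeR adjusted p = 0.00248), in a class where 12.5% of genes were called. It was lost under the stricter gate (0.58, adjusted p = 0.0828), with thinned cells (0.58, adjusted p = 0.0822) and with the lane as the unit (0.82, adjusted p = 0.0675). Other genes of these monocytes differed between the same groups. The T cell genes Cd8a and Cd3e averaged 103 and 22.2 CPM in control CD40 against 18.9 and 5.81 CPM in B2m-null CD40. Of the myeloid genes Lyz2 was at 5517 against 11770 CPM, Cd68 at 134 against 318 CPM and Csf1r at 247 against 276 CPM. C1qa was at 47.4 against 79.2 CPM, whereas Apoe went the other way, at 345 against 226 CPM. The part of these genes in the monocyte results under CD40 was not tested.

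Under isotype the B2m-null mice had 2029, 1617, 1676, 1366 and 1493 CPM and the control mice 1011, 1219, 978, 1454 and 1061 CPM, where 1 control mouse lay inside the B2m-null range. The log2 change of Tgfbi was 0.43 (SE 0.11, edgeR adjusted p = 0.0413), where 2.04% of monocyte genes were called. This call was lost in 18 of 34 settings, among them without lane B2m-null isotype 1 (0.31, adjusted p = 0.453), lane control isotype 1 (0.30, adjusted p = 0.634), lane control CD40 1 (0.43, adjusted p = 0.0625) or lane control CD40 2 (0.43, adjusted p = 0.0656). It was lost, too, without any 1 of 10 mice: B2m-null isotype pool 1 mice 1 to 3 and pool 2 mouse 2, both control CD40 mice, control isotype pool 1 mice 1 to 3 and pool 2 mouse 2 (log2 values from 0.38 to 0.46, adjusted p from 0.0509 to 0.144). The other losses were without a filter on low counts (0.41, adjusted p = 0.0674), with the stricter cell filter (0.35, adjusted p = 0.147), with the stricter gate (0.47, adjusted p = 0.0601) and with the lane as the unit (0.41, adjusted p = 0.598). CD40 gave monocyte Tgfbi a value of -0.47 in control tumours, just short of a call (adjusted p = 0.0501, 10.7% of genes called), and an adjusted p of 0.534 in B2m-null tumours (21.6% called). The control tumour value passed in a minority, 8, of the fits without 1 mouse or lane (-0.60 to -0.45, adjusted p from 0.0254 to 0.0451). By mouse these were B2m-null CD40 pool 1 mouse 1, B2m-null isotype pool 2 mouse 1 and control isotype pool 1 mice 1 and 3. By lane they were B2m-null CD40 1, B2m-null isotype 1 and 2 and control CD40 1. The value passed, too, with at least 50 cells per mouse (adjusted p = 0.0399) and with no filter on low counts (adjusted p = 0.0491).

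Il10ra fell in macrophages of B2m-null tumours under CD40. The B2m-null CD40 mice had 68.3, 52.9, 53.5 and 54.6 CPM and the control CD40 mice 89.5 and 94.3 CPM, without overlap. The log2 change was -0.71 (SE 0.17, edgeR adjusted p = 0.0159), in a class where 11.9% of genes were called. The call was lost without lane B2m-null CD40 2 (-0.69, adjusted p = 0.0803) and with the lane as the unit (-0.74, adjusted p = 0.0762). In the same macrophages Cd3e averaged 16.8 CPM in control CD40 and 6.64 CPM in B2m-null CD40 and Cd8a 22.6 and 16.7 CPM, while Il10ra was at 105 CPM in CD8 T cells over all mice. The part of T cell transcripts in this result was not tested either. Under isotype the B2m-null macrophages had 61.2, 82.1, 67.7, 65.4 and 42.4 CPM and the controls 84.0, 88.3, 63.4, 64.8 and 73.6 CPM, overlapping, with a log2 value of -0.31 (adjusted p = 0.127, 12.3% called). CD40 in control tumours gave macrophage Il10ra a value of 0.44 (SE 0.16, adjusted p = 0.0619). It passed in a minority, 6, of the fits without 1 mouse or lane, with values of 0.43 to 0.50 and adjusted p from 0.0142 to 0.0498. Those left out were B2m-null isotype pool 1 mouse 2, pool 2 mouse 2 and both of that group's lanes, and control isotype pool 1 mice 1 and 2. The value also passed with thinned cells (0.56, adjusted p = 0.0158), the stricter gate (0.49, adjusted p = 0.0305) and no filter on low counts (0.45, adjusted p = 0.0294).

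The same comparison of B2m-null with control tumours under CD40 changed Il10ra in CD4 T cells, from few counts. The B2m-null CD40 mice had 41.0 (10 UMIs), 41.7 (29 UMIs) and 27.5 CPM (13 UMIs) and the control CD40 mice 97.8 (19 UMIs) and 129 CPM (43 UMIs). The log2 change was -1.57 (SE 0.38, edgeR adjusted p = 0.0469), where 0.707% of CD4 T genes were called, and no CD4 T pair was called for CD40 in control tumours, where 3.7% were. The call on CD4 T cells was lost in 14 of 28 settings. By lane these were B2m-null isotype 2 (adjusted p = 0.0565), control isotype 1 (0.158), control CD40 1 (0.0632) and control CD40 2 (0.144). By mouse they were B2m-null CD40 pool 2 mice 1 and 2 (0.0706 and 0.228), B2m-null isotype pool 2 mouse 1 (0.0565) and control isotype pool 1 mice 1, 2 and 3 (0.0754, 0.0859 and 0.0756). The rest were at least 50 cells per mouse (0.0940), the stricter cell filter (0.14997), the stricter gate (0.0769) and the lane as the unit (0.906). The log2 value of Il10ra in this comparison was negative in the other tested classes without passing: -0.45 in monocytes (92.1 ± 6.98 against 138 ± 0.226 CPM, adjusted p = 0.0639), -0.57 in CD8 T cells (adjusted p = 0.107), -0.86 in NK cells (adjusted p = 0.271) and -0.86 in Foxp3-positive T cells (adjusted p = 0.363). Il10ra passed in monocytes without lane B2m-null isotype 2 (-0.46, adjusted p = 0.0470) and with library totals only (-0.58, adjusted p = 0.0224), and in CD8 T cells without lane B2m-null CD40 2 (-0.84, adjusted p = 0.0323) and with no filter on low counts (-0.63, adjusted p = 0.0308). DESeq2's size factors in the edgeR fit also gave a call in monocytes (-0.49, adjusted p = 0.0457).

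Tgfbr2 fell in monocytes in this comparison as well. One B2m-null CD40 mouse, pool 1 mouse 1, had 0 Tgfbr2 UMIs among 75079 from monocytes, which allows up to 40.0 CPM (3 counts), and the other 3 had 36.0, 23.6 and 35.1 CPM. The control CD40 mice had 62.4 and 70.3 CPM, and the groups did not overlap. The log2 change was -0.98 (SE 0.31, edgeR adjusted p = 0.0396). It was lost in 12 of 31 settings. By lane these were B2m-null CD40 2 (-0.91, adjusted p = 0.128), control isotype 2 (-0.96, adjusted p = 0.0540), control CD40 1 (-1.03, adjusted p = 0.0938) and control CD40 2 (-0.91, adjusted p = 0.151). By mouse they were B2m-null CD40 pool 2 mouse 1 (-0.85, adjusted p = 0.0981) and control isotype pool 1 mouse 2 and pool 2 mouse 2 (adjusted p = 0.0522 and 0.0517). The others were DESeq2 (-1.06, adjusted p = 0.0565), the stricter cell filter (-0.82, adjusted p = 0.0650), the stricter gate (-0.70, adjusted p = 0.439), thinned cells (-0.93, adjusted p = 0.237) and the lane as the unit (-0.80, adjusted p = 0.134). The T cell genes Cd8a and Cd3e were higher in the same control CD40 monocytes, as given for Tgfbi, and Tgfbr2 was at 114 CPM in CD8 T cells against 41.0 CPM in monocytes over all mice. The part of T cell transcripts in this result was not tested.

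Over all haematopoietic cells of a mouse, the mix of classes and the level per class cannot be told apart. None of 28 two-sided exact permutation tests of log2(CPM + 1) passed after adjustment, the lowest adjusted p being 0.444, and 2 were below 0.05 unadjusted. The tests that involve control CD40, of 2 against 5 and of 4 against 2 mice, cannot fall below 0.05 even unadjusted. They decide nothing about those comparisons. Tgfbr1 was 29.4 ± 5.78 CPM in B2m-null CD40 (n = 4) and 50.2 ± 14.2 CPM in B2m-null isotype (n = 5), without overlap (exact permutation p = 0.0159, the smallest this design allows). Even so, the adjusted p of Tgfbr1 in this test was 0.444. Tgfb1 averaged 152 ± 11.6 CPM in the B2m-null isotype mice, against 120 ± 23.9 CPM in the control isotype mice (n = 5 each, exact permutation p = 0.0397). Tgfbi was 293 ± 10.5 CPM in control CD40 (n = 2) and 524 ± 105 CPM in control isotype (n = 5), without overlap, a design of 2 against 5 mice whose exact test cannot pass. Monocytes, the class with its highest level, were 2.47% and 10.3% of these cells in those groups. Il10rb did not overlap between them either, at 82.1 and 94.3 CPM. Under CD40, B2m-null (n = 4) and control mice (n = 2) did not overlap for Il10ra (64.3 and 102 CPM), Tgfb1 (136 and 107 CPM) or Tgfbi (678 and 293 CPM). The other genes overlapped in that comparison. With so few mice some genes separate by chance, and the share of all genes that did so is not given for either comparison with control CD40. Whether these members stand out from other genes was thus not tested. The Il10 means were 28.4 ± 3.76 CPM in control isotype, 26.0 ± 2.77 in control CD40, 24.7 ± 11.7 in B2m-null isotype and 29.1 ± 15.2 in B2m-null CD40.

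The pathway around the 7 genes was followed through 72 further genes in 9 lists, with 6 genes standing in 2 lists each and counted once in the totals. In macrophages 57 of them could be tested, and CD40 in B2m-null tumours changed the most, with 18 up and 11 down (50.9% called, against 37.1% of all macrophage genes). In control tumours CD40 raised 6 and lowered 2 (14.0% called, against 23.1% of all macrophage genes). B2m loss under isotype raised 7 and lowered 7 (24.6%, against 12.3%). Under CD40 it raised 1 and lowered 2 (5.26%, against 11.9%). The difference between the CD40 effects was called for 4 in each direction (14.0%, against 18.9%). The counts of single lists given below stand against the same 37.1% or 23.1%. Among IL-10 receptor signalling genes, CD40 in B2m-null tumours raised 2 of 5 and lowered 1. Socs3, the feedback inhibitor that Stat3 induces, rose by 1.13 (SE 0.11), from 66.4 to 122 CPM on average. Under isotype Socs3 was lower in B2m-null than in control macrophages (log2 change of -0.78, SE 0.11), and the CD40 effect on it differed between the genotypes (0.80, edgeR adjusted p = 0.00598).

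Among 9 IL-10 response genes of myeloid cells, CD40 in B2m-null tumours raised 5 and lowered 1. Il1rn, the antagonist of the IL-1 receptor, rose by 0.98 (SE 0.13) there and by 0.49 (SE 0.15) in control tumours. The gene that fell was Cd163, the haemoglobin scavenger receptor, by -2.32 (SE 0.38), from 62.9 to 11.4 CPM, and B2m loss under isotype raised it by 1.54 (SE 0.32). Of 9 transcription factors that act on Il10, 4 rose and 1 fell in that comparison. Maf, which drives Il10 transcription, was the one that fell, by -0.97 (SE 0.13), from 684 to 306 CPM, and it was higher in B2m-null than in control macrophages under isotype, by 0.55 (SE 0.12). Macrophage Il10 was not called in either of these comparisons.

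The lists on the TGF-beta side gave 4 rises and 4 falls among 13 Smads and regulators in B2m-null macrophages under CD40. Smurf1 rose by 0.59 (SE 0.12) and Smurf2 fell by 0.69 (SE 0.10) on the log2 scale, both of them ubiquitin ligases that act on the receptors and Smads. Of 7 tested latency and activation genes 1 rose and 1 fell. Thbs1, which encodes thrombospondin 1, an activator of latent TGF-beta, fell by 1.43 (SE 0.21) on the log2 scale, and in control tumours by 1.25 (SE 0.27). Furin, the protease that cuts the TGF-beta precursor, rose by 0.58 (SE 0.14) in B2m-null tumours. Of 9 tested other ligands and receptors of the family 4 rose and 1 fell, led by Inhba, the activin A subunit, at 2.503 (SE 0.39) and Bmpr2, a receptor for bone morphogenetic proteins, at -0.72 (SE 0.09). Of 10 tested TGF-beta response genes 1 rose and 2 fell, among them Fn1, fibronectin, at -0.94 (SE 0.29), which B2m loss under isotype had raised by 1.05 (SE 0.27).

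In monocytes 46 of the 72 genes were tested, and CD40 raised 3 and lowered 15 in B2m-null tumours (39.1% called, against 21.6% of all monocyte genes), and raised 2 and lowered 5 in control tumours (15.2%, against 10.7%). In CD8 T cells 47 were tested, and CD40 raised 14 and lowered 5 in control tumours (40.4% called, against 33.2% of all CD8 T genes). In B2m-null tumours it raised 2 and lowered 2 (8.51%, against 7.74%). Smads and their regulators accounted for 7 of the 14 rises, with no fall among the 12 tested and a median of 0.69. These 7, named after their values were seen, were Smad3 (1.64, SE 0.37), Smad4 (0.46, SE 0.17), and the regulators Smad7, Smurf1, Ski, Pmepa1 and Rnf111 (0.73 to 1.17). Smad7, Smurf1, Ski and Pmepa1 are known as inhibitors of the pathway. In the same cells Thbs1 fell by 1.59 (SE 0.32) and Itgav, the integrin chain that activates TGF-beta, by 1.46 (SE 0.32) on the log2 scale. From control isotype to control CD40, Apoe in this class went from 124 to 95.9 CPM and Cd68 from 40.2 to 31.3 CPM. C1qa went from 44.6 to 49.4 CPM. The part of macrophage transcripts in the 2 falls was not tested. Gata3 rose by 1.01 (SE 0.22) and Maf, also named after its values were seen, by 0.97 (SE 0.24). For Gata3 and Maf, both of which act on Il10, the CD40 effect differed between control and B2m-null tumours (differences of -1.15 and -1.31, edgeR adjusted p = 0.0453 and 0.0400), and these 2 were the only genes of the lists in CD8 T cells for which it did (4.26% of the 47 tested, against 6.1% of all CD8 T genes).

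The genes whose levels most resembled each member over 51 means of class and group were taken by Pearson correlation among 11752 genes, as a description without a test, since the means share libraries and depth. Tgfbi resembled Pid1 (0.92), Csf1r (0.90) and Pirb (0.89), Tgfb1 resembled Itgb2 (0.89) and Zc3h12a (0.85), and Il10ra resembled Ttc7, Laptm5 and Gpr132 (0.88 each). Tgfbr2 was nearest to Slc43a3 (0.82), B4galt1 (0.80) and Cmah (0.79), and Il10 to Aopep (0.79), Agfg1 (0.68) and Cd6 (0.67). Il10rb was nearest to Tmem189 (0.76), Rab20 (0.71) and Atp6v1c1 (0.71), and Tgfbr1 to Npc1 (0.76), Ndst1 (0.69) and Srpr (0.68). Among the 7 genes themselves the highest value was 0.47, between Il10rb and Tgfbr1, and the lowest -0.33, between Tgfbr2 and Tgfbi.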

How the data were processed

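The deposited matrices hold UMI counts per gene and cell barcode, with hashtag counts in further rows, per the file headers. The submitters' processing notes name mm10, Cell Ranger 3.0.0 and bcl2fastq 2.20.0.422. Here, hashtag doublets and cells with under 200 genes or over 10% mitochondrial counts were removed. Mice were assigned by a Gaussian mixture on hashtag counts (posterior of at least 0.9). By lane, 48.0 to 93.8% of all barcodes were assigned. Of the cells left after removal, 84.5% were assigned over all lanes. Cells were gated on marker genes (score of at least 0.15, margin of 0.1 over the next class). Genes and lists were chosen with earlier results of these data known.

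Counts were summed per mouse and class (at least 20 cells) and tested with edgeR 4.0.16 (limma 3.58.1, R 4.3.3; TMM, filterByExpr, quasi-likelihood test, Benjamini-Hochberg over all genes of the class), with all 4 groups sharing 1 estimate of the spread. DESeq2 1.42.0 was an alternative. The fits were also run on simulated data, with results that are not reported here. Class orders and whole-fraction levels used exact permutation tests on log2(CPM + 1) (scipy 1.17.1, numpy 2.4.6, pandas 2.3.3, scikit-learn 1.9.0, Python 3.11.15). The mice are separate animals, but each pool is 1 library, so lane and pool effects are shared by the mice of a pool. The naming rule covered the 7 genes in the classes tested, and pairs of gene and class that are not described were not called. List genes were named by lowest adjusted p, at most 3 per list and comparison in macrophages and 3 per comparison in other classes, and the 3 genes most like each member were named. Some genes that these rules name are not reported here. Shares and levels cover counting error only where no SD is given. Coordinates are those of GENCODE on GRCm38, the mm10 assembly. Of the 7 genes, 4 have a RefSeq promoter entry.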

Additional observations from a re-analysis of the deposited data

Results flagged for a closer look

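A total of 5 values, of 43 sets of 4 or 5 mice examined, lay far from the other mice of their group, where chance gives about 1 in 20 sets. Il10ra in macrophages of B2m-null CD40 pool 1 mouse 1 was 68.3 CPM, the highest of 4, and the same mouse had the highest Il10ra over all haematopoietic cells, at 73.2 CPM. This is the mouse with 387 cells. Tgfbr2 in CD8 T cells of B2m-null isotype pool 1 mouse 1 was 89.0 CPM, the lowest of 4, from 10 UMIs. Over all haematopoietic cells, control isotype pool 2 mouse 1 had the highest Il10 of 5, at 35.0 CPM, and control isotype pool 2 mouse 2 the highest Tgfbr2 of 5, at 96.4 CPM.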

How the results depend on the processing

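The number of the 7 genes' pairs called moved by more than 1.5 times under several settings. For CD40 in control tumours (2 pairs) it was 7 with no filter on low counts, 1 with DESeq2, 4 with the stricter gate and 1 with the lane as the unit, where control CD40 is 1 sample and its spread is that of the other groups. It was 4 with library totals only, a setting chosen after seeing the data, and 1 to 5 without 1 mouse or lane. For CD40 in B2m-null tumours (2 pairs) it was 5 with no filter, 1 with the stricter cell filter (at least 500 genes, at most 5% mitochondrial counts), 4 with the stricter gate, 1 with the lane as the unit, 4 with library totals only and 1 to 3 without 1 mouse or lane. For B2m loss under isotype (1 pair) it was 0 with no filter, with the stricter cell filter, with the stricter gate and with the lane as the unit, and 0 to 2 without 1 mouse or lane. For B2m loss under CD40 (4 pairs) it was 8 with no filter, 2 with DESeq2, 2 with the stricter cell filter, 1 with the stricter gate, 1 with cells thinned to 1000 UMIs, 0 with the lane as the unit and 2 to 5 without 1 mouse or lane. For the difference of the CD40 effects (0 pairs) it was 3 with no filter, 1 with the stricter gate, 1 with thinned cells and 0 to 2 without 1 mouse or lane. The causes were not tested. Over all haematopoietic cells the 2 unadjusted results became 0 with the lane as the unit and 1 to 3 without 1 mouse. Of the neighbouring classes, 4 pairs passed and 13 did with at least 50 cells per mouse, where 2 of the 7 genes kept their highest class. No called change reversed its sign in any setting. Comparisons with control CD40 were never refitted without either of its 2 mice. With the pool number as a replicate block, 4 pairs were called for CD40 in B2m-null tumours and 2 for B2m loss under isotype. The added pairs were Tgfbr2 in CD8 T cells (0.60), Il10ra in NK cells (-1.16) and Tgfb1 in macrophages (0.33). Whether pools of the same number were processed together is not given by the labels. Deviations of same-numbered pools correlated at 0.287 between the B2m-null groups. With control isotype they correlated at 0.118 for B2m-null CD40 and 0.0894 for B2m-null isotype.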
